A study of Mus musculus with 4 samples.

Results

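Expression of 7 adipocyte genes was read in 4 sections of MC38 tumors by Visium, which captures RNA on a slide printed with a grid of barcoded spots and so keeps the position of each transcript. The genes were Adipoq, Plin1, Cidec, Fabp4, Cfd, Lep and Retn, 7 of the 32285 genes in the count tables, and they were chosen by symbol. They were proposed with their strain levels in these sections already known, so levels by strain are given as a description with no test. MC38 is a colon carcinoma line of C57BL/6 origin. Per the labels, the cells had been injected subcutaneously into female hosts aged 8 to 12 weeks. CC075F1 hosts were F1 offspring of C57BL/6J and CC075/UncJ, a strain of the Collaborative Cross (recombinant inbred mice descended from several founders), and gave 2 sections. CC080F1 hosts were F1 offspring of C57BL/6J and CC080/TauUncJ and also gave 2 sections. The study classes CC075F1 as a responder and CC080F1 as a non-responder to anti-PD-1. All 4 tumors had received the same isotype control antibody (200 µg) at a volume of 75 to 110 mm3 and were taken 48 hours later, so every group carries that treatment.

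White adipocytes store triglyceride in 1 large lipid droplet and release hormones. Adiponectin (Adipoq), leptin (Lep), resistin (Retn) and adipsin (Cfd, complement factor D) are secreted. Perilipin-1 (Plin1) and Cidec coat the droplet, where Plin1 controls access of lipases and Cidec promotes the growth of the droplet. Fabp4 carries fatty acids in the cytosol and is also known from capillary endothelial cells and macrophages. Adipocytes lie in the subcutis and mammary fat into which a subcutaneous tumor grows.

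The adipocyte program is driven by PPARγ with factors of the C/EBP family. Promoters of 3 members that hold a match to a C/EBP-type motif (Adipoq, Plin1 and Lep) are shown, with its letters in capitals. RefSeq (GRCm38.p6) gave a promoter for 6 of the 7 members, in 7 windows because Cidec has 2, and none for Fabp4. Each sequence is the 250 bases before the start site, read 5′ to 3′ on the gene's strand. They lie at chr16:23146286-23146535 on the plus strand (Adipoq), chr7:79732777-79733026 on the minus strand (Plin1) and chr6:29059971-29060220 on the plus strand (Lep).
Adipoq: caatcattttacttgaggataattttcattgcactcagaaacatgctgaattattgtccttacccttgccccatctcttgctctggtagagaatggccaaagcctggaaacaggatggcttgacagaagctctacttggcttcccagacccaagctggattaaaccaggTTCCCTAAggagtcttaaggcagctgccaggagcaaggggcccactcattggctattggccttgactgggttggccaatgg
Plin1: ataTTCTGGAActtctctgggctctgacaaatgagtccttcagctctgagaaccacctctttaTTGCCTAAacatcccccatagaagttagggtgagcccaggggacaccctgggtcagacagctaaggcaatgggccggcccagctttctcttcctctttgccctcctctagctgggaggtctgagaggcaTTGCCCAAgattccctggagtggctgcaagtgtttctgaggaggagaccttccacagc
Lep: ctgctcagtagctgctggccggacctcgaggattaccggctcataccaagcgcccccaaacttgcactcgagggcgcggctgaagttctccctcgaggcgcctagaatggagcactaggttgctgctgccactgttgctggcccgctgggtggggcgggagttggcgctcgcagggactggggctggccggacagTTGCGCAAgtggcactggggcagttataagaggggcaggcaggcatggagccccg
The full palindrome TTGCGCAA, searched on both strands, was found in 54 of 32851 promoter windows (0.164%) and among the members in Lep alone, with its first base 55 bases before the start site. The looser form TTNNGNAA, which contains the palindrome and was also searched on both strands, was found in 36.8% of all windows and in 5 of the 7 member windows. The match shown in Adipoq, and all but the first in Plin1, are on the strand opposite to the one printed. Those were the windows of Adipoq, Plin1 and Lep and both windows of Cidec, while Cfd and Retn had no match. The nuclear receptor letters AGGTCA (4607 of the 32851 windows) and the TATA letters TATAAA (4063 windows) were in none of the 7. These are matches of letters, not sites of binding.

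The sections held 2710 and 3276 spots in CC075F1 and 2787 and 3174 in CC080F1, with 82594649 to 146460975 UMIs per section (a UMI marks 1 captured RNA molecule) and a median of 31139 to 41740 UMIs per spot. Spot barcodes are position codes shared between capture areas, and 1666 of them were in all 4 sections. Tissue reached the border of the capture area in 25 and 1 spots of the CC075F1 sections and in 75 and 58 spots of the CC080F1 sections. Skeletal muscle or skin markers passed 5 UMIs per 10000 in 160 spots of CC075F1 replicate 2 and in 0 to 26 spots of the others. The macrophage list ran from 2067 to 3100 CPM (UMI counts scaled to 1000000 per section) and the endothelial list from 112 to 220 CPM. Of the genes taken as marks of MC38, Shisal2b was present in every section, while the epithelial keratins Krt8, Krt18 and Krt19 were near 0.

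Of the 7 members, 6 had no overlap between the strains, each with both CC080F1 sections above both CC075F1 sections. The exception was Lep. Of all 22507 genes with a UMI, 26.2% had that order and 7.03% the opposite one. Since a spot holds several cells, fewer adipocytes and less RNA per adipocyte cannot be told apart. Endothelial genes moved the same way, with 9 of the 10 in that list higher in both CC080F1 sections, and their part in the levels of the members was not tested.

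Adipoq (ENSMUSG00000022878, chromosome 16) had 7 and 11 UMIs in CC075F1 replicates 1 and 2, which is 0.0848 and 0.0751 CPM. It had 47 and 66 UMIs in CC080F1 replicates 1 and 2 (0.502 and 0.586 CPM). The CC075F1 sections averaged 0.0799 ± 0.00682 CPM and the CC080F1 sections 0.544 ± 0.0590 CPM (SD, n = 2 each), 6.81-fold apart. No CC075F1 spot held more than 1 UMI of it, whereas in CC080F1 replicate 2 a spot held up to 8. Its UMIs lay on 7 and 11 spots in CC075F1 and on 40 and 44 in CC080F1 (0.258% and 0.336% against 1.44% and 1.39% of spots).

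Cfd (ENSMUSG00000061780, chromosome 10), the serine protease that starts the alternative complement pathway, had 35 and 67 UMIs in CC075F1 and 327 and 489 in CC080F1. Those counts were 0.424 and 0.457 CPM against 3.49 and 4.34 CPM. The means differed 8.89-fold and the sections of 1 strain were close to each other. Cfd was on 1.14% and 0.794% of CC075F1 spots and on 6.35% and 4.57% of CC080F1 spots. Retn (ENSMUSG00000012705, chromosome 8) had 14 UMIs in each CC075F1 section (0.170 and 0.0956 CPM) and 78 and 75 in CC080F1 (0.834 and 0.666 CPM), 5.66-fold apart by section means. Both hormones thus followed the order of Adipoq.

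Lep (ENSMUSG00000059201, chromosome 6), the satiety hormone of fat, was seen in a single section. It had 0 UMIs in both CC075F1 sections and in CC080F1 replicate 1, and 10 UMIs (0.0887 CPM) on 8 spots of CC080F1 replicate 2. A count of 0 allows up to 3 UMIs, or 0.0363, 0.0205 and 0.0321 CPM in those 3 sections. No fold is given, because both CC075F1 sections had 0 UMIs, and the CC080F1 sections were not alike.

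The droplet coat genes were sparse in CC075F1. Plin1 (ENSMUSG00000030546, chromosome 7) had 0 and 1 UMIs there (the 1 UMI is 0.00683 CPM) and 19 and 14 UMIs in CC080F1 (0.203 and 0.124 CPM). Pooled over sections the ratio was 36.6, with an exact 95% interval of 6.14 to 1491 that covers counting error only. Cidec (ENSMUSG00000030278, chromosome 6) had 3 and 8 UMIs in CC075F1 (0.0363 and 0.0546 CPM) and 42 and 85 in CC080F1 (0.449 and 0.754 CPM). Its section means were 13.2-fold apart, and in CC080F1 replicate 2 it was on 51 spots, with up to 6 UMIs in 1 spot.

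Fabp4 (ENSMUSG00000062515, chromosome 3) was on many more spots than the other members. It had 2450 and 4250 UMIs in CC075F1 (29.7 and 29.0 CPM) and 5659 and 4878 in CC080F1 (60.5 and 43.3 CPM). The means were 29.3 ± 0.456 and 51.9 ± 12.2 CPM (SD, n = 2 each), 1.77-fold apart. It was detected on 45.4% and 57.3% of CC075F1 spots and on 73.2% and 56.5% of CC080F1 spots, so by share of spots the strains overlapped. With every spot thinned to 10000 UMIs the shares were 22.5%, 25.9%, 40.6% and 28.0%, in the same section order, and no longer overlapped. The thinning left out 53 to 205 spots per section. The 10 spots richest in Fabp4 held 2.63% to 7.40% of its UMIs per section, against 26.3% to 74.6% for Cfd. Cfd was on only 26 to 177 spots per section and Fabp4 on 1230 to 2039. These shares therefore also depend on the number of spots holding the gene.

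**Figure D1:**
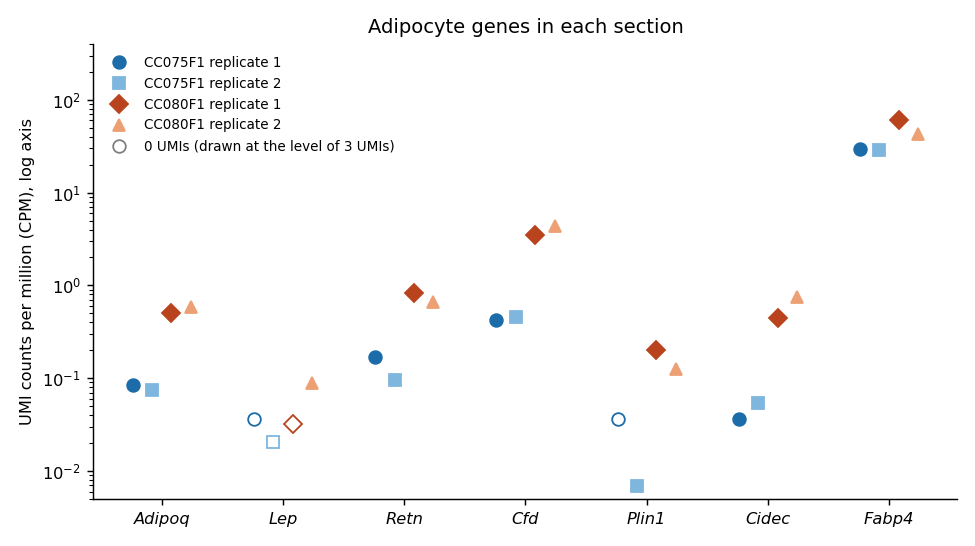
Levels of the 7 genes in each section, in CPM on a log axis, with 1 point per section and open symbols for 0 UMIs drawn at the level of 3 UMIs. For every gene except Lep both CC080F1 points lie above both CC075F1 points, and the distance is smallest for Fabp4 (1.77-fold by section means).

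To locate fat, spots with at least 2 UMIs summed over Adipoq, Plin1, Cidec and Lep, the members known for restriction to adipocytes, were called fat spots. CC075F1 replicate 1 had none, which allows a share of up to 0.111%, and replicate 2 had 3 (0.0916%). CC080F1 replicates 1 and 2 had 14 and 29 (0.502% and 0.914%). The exact 95% intervals were 0.0189% to 0.267% in CC075F1 replicate 2, 0.275% to 0.841% in CC080F1 replicate 1 and 0.613% to 1.31% in CC080F1 replicate 2. With spots thinned to 10000 UMIs, 0, 1, 3 and 10 fat spots remained. Fat was thus a minor component of all 4 sections by these genes.

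The spots that held any of those 4 genes lay partly in groups. There were 10 and 14 of them in CC075F1 and 78 and 84 in CC080F1. In CC075F1 the largest group of touching spots had 2 members, and 8 of 10 and 10 of 14 spots had no positive neighbour. In CC080F1 the largest group had 4 spots in replicate 1 and 10 in replicate 2, with 42 and 32 spots alone. Cfd was grouped in the same way. A Cfd spot had another Cfd spot among its 6 neighbours in 25.8%, 50%, 69.5% and 64.1% of cases in the 4 sections (CC075F1 replicates 1 and 2, then CC080F1), against 5.76%, 2.63%, 23.3% and 14.4% over all spots. Moran's I on log2(CPM + 1), which is 0 without spatial order, was 0.0295, 0.122, 0.222 and 0.331 for Cfd. It was 0.0487 to 0.119 for Adipoq and -0.00312 to 0.172 for Retn. Cidec had -0.000832 and -0.000512 in CC075F1, where it had at most 8 UMIs, and 0.0481 and 0.203 in CC080F1. For Fabp4 it was 0.205, 0.146, 0.186 and 0.25, so Fabp4 was ordered in space in all 4 sections although nearly every spot had a positive neighbour.

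**Figure D2:**
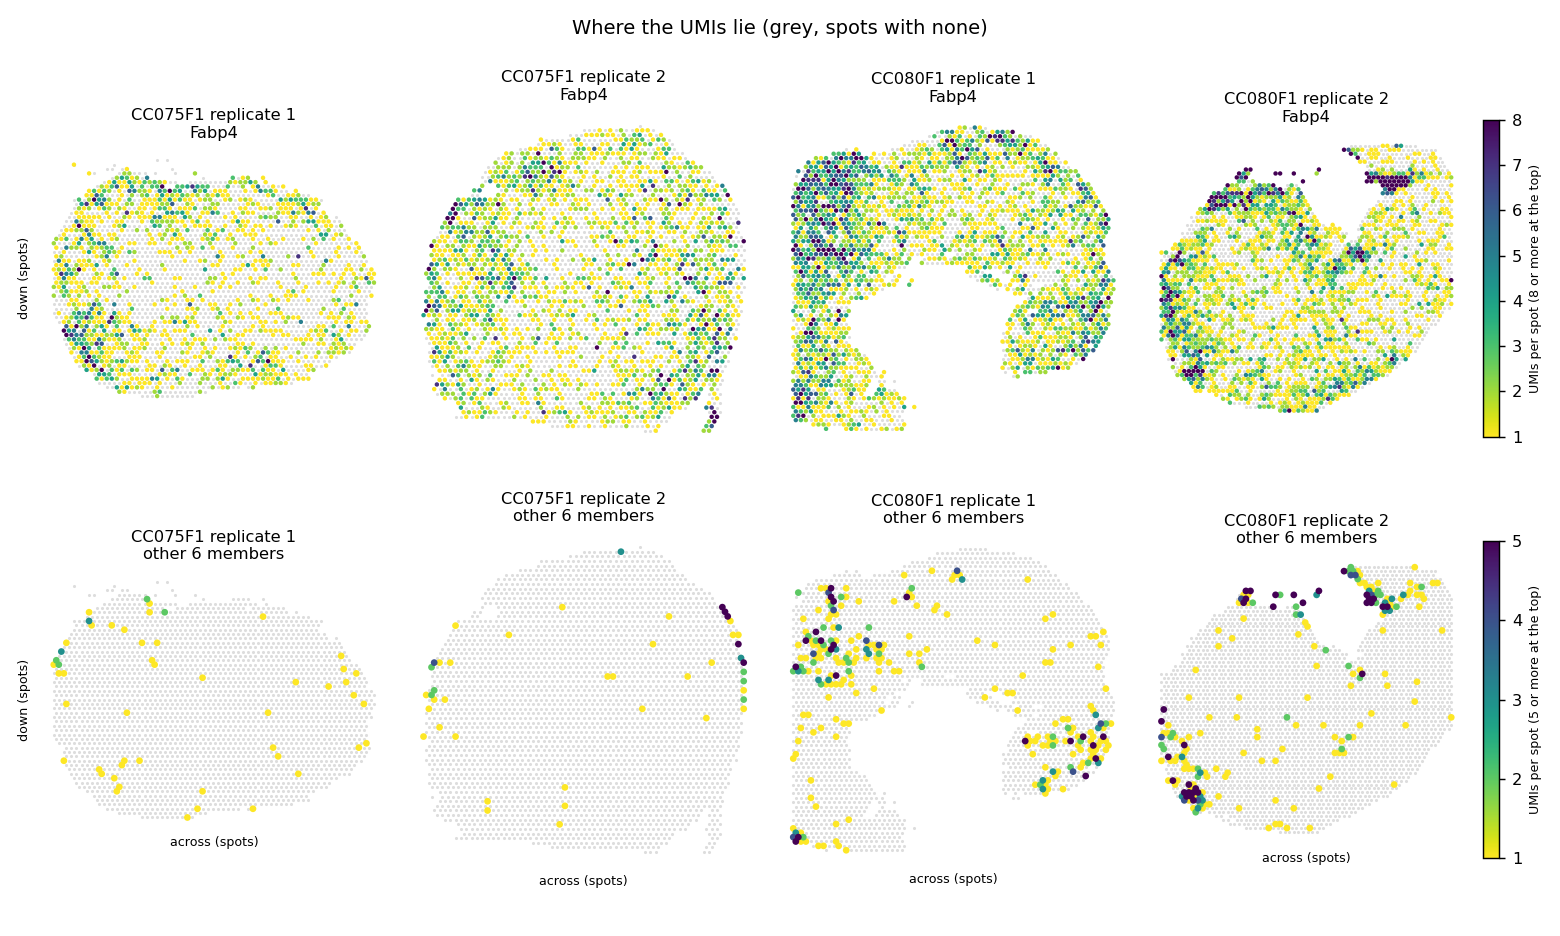
Spots of the 4 sections drawn on the slide grid, in grey where no UMI was found and coloured by UMIs per spot, for Fabp4 (top row) and the sum of the other 6 genes (bottom row). In CC080F1 the other 6 genes form patches, in replicate 1 mainly on the left and lower right parts of the tissue, while in CC075F1 they are mostly single spots apart from a short row along the right margin of replicate 2.

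Which members shared spots with Adipoq, Plin1, Cidec or Lep was read from the spots holding any of them (core spots), their touching spots, and all others. A core spot needs only 1 UMI, so it need not be a fat spot. Cfd was concentrated there. It stood at 12.0, 113, 45.4 and 141 CPM on the core spots of the 4 sections, against 0.382, 0.131, 1.24 and 0.647 CPM away from them. Those core spots held 8.57%, 52.2%, 38.8% and 70.1% of its UMIs, and with their neighbours 11.4%, 71.6%, 70.0% and 86.5%. The low share in CC075F1 replicate 1 rests on 35 UMIs. Retn was similar in CC080F1, with 43.6% and 72% of its UMIs on core spots. In CC075F1 it had 7.14% and 21.4% there, from 1 and 3 UMIs, so most of its few UMIs lay elsewhere.

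Fabp4 was different. It was higher on core spots (51.8, 145, 115 and 285 CPM) than away from them (29.7, 28.7, 55.3 and 33.9 CPM). However, core spots held only 0.531%, 1.06%, 5.71% and 14.2% of its UMIs, and core spots with their neighbours 1.67%, 2.26%, 22.5% and 29.1%. The remaining 98.3%, 97.7%, 77.5% and 70.9% of its UMIs lay on spots not touching a core spot. Core spots with their neighbours were 2.18%, 2.08%, 14.6% and 10.3% of all spots, so these shares also follow the number of core spots. Beside the members, the endothelial list on core spots was 1.28, 2.30, 1.26 and 2.47 times its level elsewhere and the macrophage list 1.16, 1.36, 0.991 and 1.17 times. A list of 31 other genes of fat metabolism was 0.925, 1.54, 0.995 and 1.54 times its level elsewhere, so it was not raised in replicate 1 of either strain. The fibroblast list was 0.993, 1.72, 1.14 and 1.76 times. Skeletal muscle was 10.4 times higher on the core spots of CC075F1 replicate 2, the section with muscle at its margin.

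**Figure D3:**
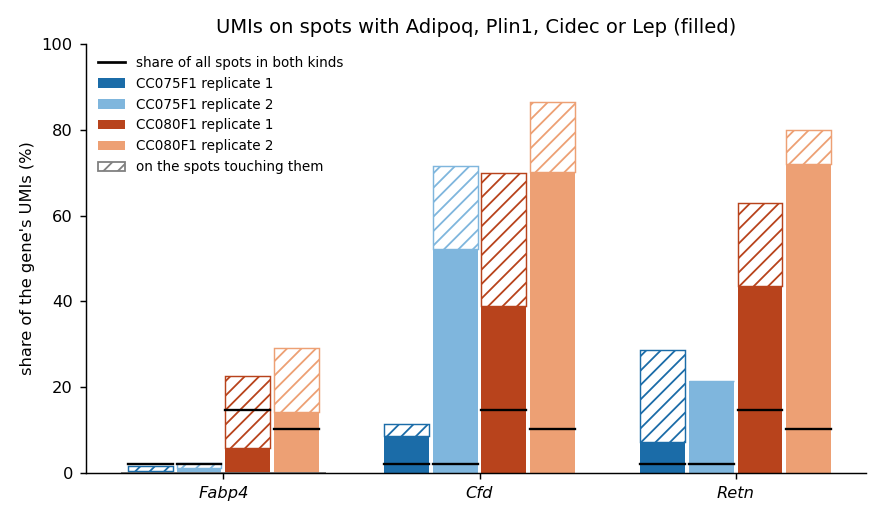
Share of each gene's UMIs on spots holding Adipoq, Plin1, Cidec or Lep (filled) and on the spots touching them (hatched), per section, with a black line for the share of all spots of both kinds. Cfd and Retn exceed the line in every section, with up to 86.5% for Cfd. Fabp4 reaches at most 29.1%. It exceeds the line in both CC080F1 sections, barely in CC075F1 replicate 2 (2.26% against 2.08%), and not in CC075F1 replicate 1.

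The tumor edge was defined as spots within 3 grid steps of a position off tissue (568 to 880 spots per section), and edge and interior sums were compared within sections. Fabp4 stood at 68.1 against 23.6 CPM in CC075F1 replicate 1 and at 57.2 against 24.8 CPM in CC075F1 replicate 2. It stood at 64.4 against 58.9 CPM in CC080F1 replicate 1 and at 96.2 against 33.3 CPM in CC080F1 replicate 2. The edge was higher in all 4 sections, by 2.88, 2.31, 1.09 and 2.89 times, with CC080F1 replicate 1 close to even. Cfd had ratios of 9.55, 105, 1.14 and 15.4, and Cidec of 3.18, 46.8, 1.10 and 16.2. Of all genes tested, 17.6% were higher at the edge in all 4 sections. Adipoq had 8.49, 17.8, 0.934 and 12.2, and Retn 3.54, 3.71, 0.787 and 12.8. These ratios rest on few UMIs in CC075F1, such as 4 at the edge and 3 in the interior for Adipoq in replicate 1. Of the 10 Lep UMIs, 9 were at the edge of CC080F1 replicate 2.

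In the edgeR quasi-likelihood fit with section as a block, none of the 6 members that passed the filter on low counts was called at an adjusted p under 0.05 (Lep did not pass). The background was 1.00% of 15089 genes called higher at the edge. At an unadjusted p under 0.05 there were 5 of 6, against 10.3% of all genes higher at that level, and DESeq2 called 4 of 6 (background 3.09% higher). By edgeR the log2 fold change of Fabp4 was 1.02 (SE 0.210, adjusted p = 0.0631). For Cfd it was 3.03 (SE 0.803, adjusted p = 0.113), for Cidec 2.56 (adjusted p = 0.161), for Adipoq 2.35 (adjusted p = 0.150), for Retn 1.68 (adjusted p = 0.245) and for Plin1 1.32 (adjusted p = 0.518). Under the alternatives the adjusted p of Fabp4 ran from 0.000208 to 0.285. The calls turned on the filter, on single sections and on how the edge was drawn. With no filter on low counts edgeR called 4 of the 7 members, against 551 of 22507 genes called higher. Without fat spots and their neighbours, an alternative chosen after seeing the data, it called none of the 5 tested, against 146 of 15023. Without CC080F1 replicate 1, edgeR called all 5 members tested, Plin1 and Lep having not passed the filter (Fabp4 log2 fold change 1.33, adjusted p = 0.000208; Cfd 4.25, adjusted p = 0.000516), against a background of 5.26% called higher. Without CC080F1 replicate 2 it called none of the 5 tested, with 0.0270% of genes called higher. With the edge cut to 1 step it called 4 of the 5 tested, Fabp4 (adjusted p = 0.0195), Cidec (0.0339), Retn (0.0388) and Cfd (0.0421), against 2.81% of genes higher. Fabp4 alone was called by edgeR without the spots holding skin or muscle (adjusted p = 0.0311, background 2.84%) and when only the outer boundary of the tissue counted (adjusted p = 0.0378, background 1.87%).

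The border of the capture area cuts through tissue and was not counted as edge. Counting it as edge, an alternative chosen after seeing the data, gave ratios in CC080F1 replicate 1, which had the most such spots, of 1.19 for Fabp4, 1.23 for Cfd, 1.38 for Cidec, 0.953 for Adipoq and 1.22 for Retn. With that definition edgeR called Fabp4 (log2 fold change 1.02, adjusted p = 0.0277) and none of the other 5, against 2.19% of genes called higher. By distance, the sum of the other 6 members fell from 64.8 CPM at 1 step to 0.926 CPM at 11 or more steps in CC080F1 replicate 2. In CC075F1 it went from 5.11 to 0.267 CPM (replicate 1) and from 14.2 to 0.0810 CPM (replicate 2). In CC080F1 replicate 1 it was 5.49 CPM at 1 step and 7.71 CPM at 11 to 17 steps, so these UMIs lay inside as well as at the edge as defined. Cfd, with 327 UMIs, was the largest part of the sum there. Of the 14 fat spots of that section, 5 were at the edge. Edge spots had lower depth, with medians of 18031.5 to 30120 UMIs against 33591.5 to 46146 in the interior, and the endothelial list was 1.12 to 2.12 times higher there. The neutrophil list was higher at the edge in each section as well, with the lowest ratio (1.44) in CC080F1 replicate 1. In CC075F1 replicate 2 the skeletal muscle list stood at 1252 CPM at the edge against 18.4 CPM in the interior and the fibroblast list at 2373 against 825 CPM. Their part in these ratios was not tested beyond the fit without skin or muscle given above, the spots of at least 10000 UMIs (Fabp4 0.97, adjusted p = 0.0700, by edgeR) and the fit without vessel-rich spots (Fabp4 0.60, adjusted p = 0.126, by edgeR).

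The test of whether the edge contrast differed between strains called none of the 6 members in edgeR or in DESeq2, and 0 of the 6 had an unadjusted p under 0.05 in edgeR, where 4.40% of all genes were higher in CC075F1 at that level. The background was 0.106% of genes called by edgeR in either direction and 0.205% called higher in CC075F1 by DESeq2. With no filter on low counts edgeR called 1 of the 7 members, Cfd, higher in CC075F1. In that fit 345 of 22507 genes were called in that direction. The difference in log2 fold change (CC075F1 minus CC080F1) was 0.38 (SE 0.382) for Fabp4 and 2.53 (SE 1.41) for Cfd. With errors of this size, differences of severalfold could not be seen for the sparse members. Leaving out CC080F1 replicate 2, which leaves replicate 1 as the only CC080F1 section, edgeR called 2 of the 6, Fabp4 and Cfd, both higher in CC075F1, against 2.47% of genes called in that direction.

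**Figure D4:**
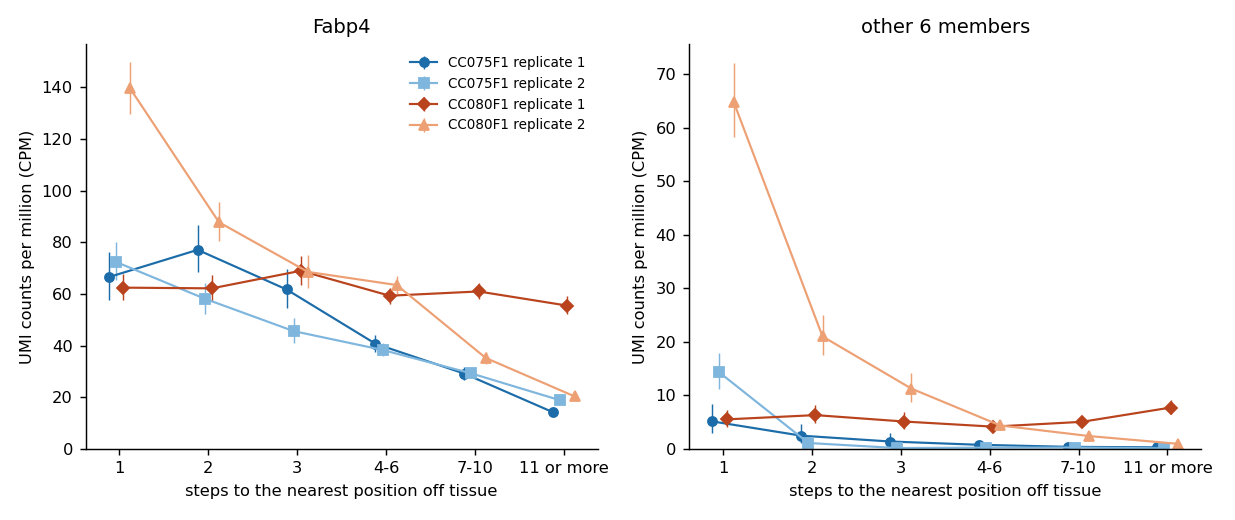
Level by distance from the nearest position off tissue, in CPM, for Fabp4 (left) and the sum of the other 6 genes (right), with 1 line per section and bars for the exact 95% Poisson interval. In 3 sections both are lower at 11 or more steps than at 1 step, while in CC080F1 replicate 1 Fabp4 stays between 55.4 and 68.9 CPM and the other 6 genes between 4.14 and 7.71 CPM.

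Whether the members also follow vessels was asked outside fat spots, by comparing the 25% of spots highest in 10 endothelial genes with the rest. Fabp4 did so in each section. It stood at 68.8 against 17.7 CPM and 73.7 against 18.0 CPM in CC075F1, and at 103 against 46.5 CPM and 90.6 against 24.4 CPM in CC080F1. Vessel-rich spots were 2.22 to 4.10 times higher, and the lowest ratio was again in CC080F1 replicate 1. The edgeR log2 fold change was 1.63 (SE 0.103, adjusted p = 3.87e-07), and it stayed past the threshold under all 13 alternatives, from 1.48 to 1.83. The background was 11.5% of 15010 genes called higher, and 40.0% were higher in all 4 sections. In the interior alone it was 1.48 (adjusted p = 2.89e-07 by edgeR). Among vessel-rich spots 26.0% to 38.2% were at the edge, against 14.6% to 29.6% of the rest.

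Of the 5 members tested, 4 were called higher in vessel-rich spots, and Plin1 and Lep did not pass the filter. Besides Fabp4 these were Adipoq (log2 fold change 1.75, adjusted p = 0.0156 by edgeR), Cfd (1.68, adjusted p = 0.00762) and Cidec (1.75, adjusted p = 0.0415). Retn did not pass in this fit, with 0.91 (adjusted p = 0.0907 by edgeR), but it passed in 2 alternatives. With the top 50% of spots edgeR called all 5 members tested, against 1646 of 15034 genes called higher. Without CC080F1 replicate 1 it called all 4 tested, against 1801 of 14789. The calls of Adipoq, Cfd and Cidec were not stable. Without CC080F1 replicate 2 edgeR called Fabp4 alone (background 8.10% higher), with adjusted p = 0.125 for Adipoq and 0.0791 for Cfd, and in that fit Cidec did not pass the filter. DESeq2 called Fabp4 and Adipoq only, against a background of 8.16% higher (adjusted p = 0.0572 for Cfd and 0.213 for Cidec). In the interior alone the edgeR value of Cfd was 0.97 (adjusted p = 0.119), while Adipoq was still called (1.66, adjusted p = 0.0319). Without macrophage-rich spots Cfd was still called by edgeR (adjusted p = 0.0243), and Adipoq was not (adjusted p = 0.0884). For Adipoq and Cidec the exclusion of fat spots leaves at most 1 UMI per spot of these genes, so they rest on 32 and 29 UMIs in vessel-rich spots over the 4 sections. Those UMIs lie on core spots by definition, so Adipoq and Cidec were not read away from core spots. With every core spot left out, edgeR called Fabp4 and Cfd of the 3 members tested, against 1730 of 14986 genes called higher.

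Macrophages were asked about in the same way, with the 25% of spots highest in 10 macrophage genes. Fabp4 stood at 38.3 against 27.1 CPM and 49.4 against 24.0 CPM in CC075F1, and at 60.9 against 59.4 CPM and 57.6 against 33.8 CPM in CC080F1. The ratios were 1.42, 2.06, 1.03 and 1.70, all above 1. Of all genes tested, 27.8% were higher in macrophage-rich spots in all 4 sections. EdgeR called none of the 5 members tested, against 5.11% of 14914 genes called higher, with 2 of 5 at an unadjusted p under 0.05, against 14.7% of genes higher at that level. DESeq2 called Fabp4 alone (adjusted p = 0.00408, background 5.99% higher). With no filter on low counts edgeR called 2 of the 7 members, Fabp4 and Cfd, against 1248 of 22485 genes called higher. Without CC075F1 replicate 2 edgeR called 2 of the 5 members tested, against 1142 of 14720 genes called higher. Without CC080F1 replicate 1 it called 1 of the 2 tested, against 894 of 14747. The absence of calls was therefore not stable. The edgeR log2 fold change of Fabp4 was 0.48 (SE 0.118, adjusted p = 0.0588), and its adjusted p ran from 0.00392 to 0.289 under the alternatives. For Cfd it was 1.32 (adjusted p = 0.144), for Adipoq 0.90 (adjusted p = 0.226), for Cidec 0.86 (adjusted p = 0.325) and for Retn 0.69 (adjusted p = 0.340). Vessel markers moved with this contrast, since the endothelial list was 1.04 to 2.45 times higher in macrophage-rich spots.

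The 2 classes were therefore crossed, as an alternative chosen after seeing the data. Spots that were neither vessel-rich nor macrophage-rich had 16.6, 16.9, 46.2 and 24.0 CPM of Fabp4 in the 4 sections. Spots rich in macrophage genes alone had 21.8, 25.2, 47.3 and 26.2 CPM, which is 1.31, 1.49, 1.02 and 1.09 times as much. Spots outside the vessel-rich class were not free of vessel genes. With the top 25% for macrophage genes taken again among them, a slightly different set, the endothelial list there stood at 71.4, 89.3, 152 and 114 CPM. The rest of them had 61.8, 53.4, 147 and 92.0 CPM of that list. Spots rich in vessel genes alone had 65.8, 70.9, 104 and 77.6 CPM of Fabp4. That was more than in spots with neither or rich in macrophage genes alone, in each section. Spots rich in both had 75.6, 77.1, 101 and 112 CPM. Without vessel-rich spots the edgeR macrophage value of Fabp4 was 0.17 (SE 0.0822, adjusted p = 0.240). Without macrophage-rich spots its vessel value was 1.54 (SE 0.0883, adjusted p = 3.42e-09 by edgeR). Spots with neither class still held 33.9%, 41.1%, 44.8% and 37.9% of the Fabp4 UMIs outside fat spots, on 56.9% to 62.5% of the spots.

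**Figure D5:**
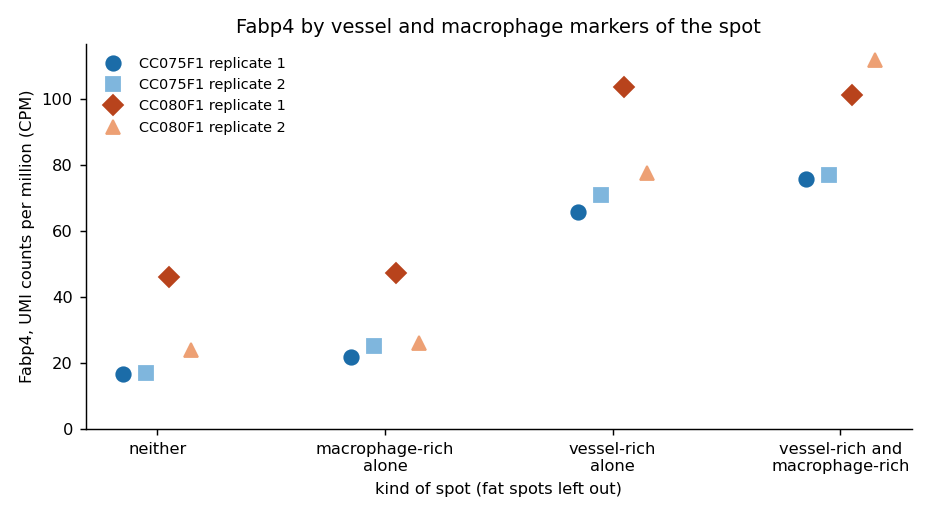
Fabp4 in CPM, with 1 point per section, in spots grouped by whether they were in the top 25% of their section for endothelial genes, for macrophage genes, for both or for neither, fat spots left out. In each section both kinds of vessel-rich spots lie above both other kinds, while spots rich in macrophage genes alone (21.8 to 47.3 CPM) are 1.02 to 1.49 times as high as spots with neither (16.6 to 46.2 CPM).

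The genes most alike over spots were found by Pearson correlation of log2(CPM + 1) with the summed members, over 14203 genes and averaged over the 4 sections, as a description. Spots share a library and differ in depth. The sum of 7 was nearly Fabp4 alone (mean r 0.98). Its closest genes were Igfbp7 (mean r 0.35), Sparc (0.32), Igfbp3 (0.30), Mcam (0.29), Plvap (0.29), Sparcl1 (0.28), Mest (0.28), Egfl7 (0.28), Postn (0.27) and Ctla2a (0.26). Several are known from vessels, such as Plvap, which forms the diaphragms of endothelial openings, and Mcam, an adhesion molecule of endothelium and pericytes. With Fabp4 left out, a choice made after seeing the data, the list changed. It was led by Hp (haptoglobin, mean r 0.37, 0.13 to 0.55 by section), Plin4 (a droplet coat protein, 0.28) and Car3 (a carbonic anhydrase abundant in fat and muscle, 0.24). Plin4 ranged from -0.00372 to 0.54, so its likeness was not present in every section.

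Of 31 other genes of fat metabolism, 11 were higher in both CC080F1 sections than in both CC075F1 sections and 1 was lower, against the 26.2% and 7.03% of all genes. In the edge contrast edgeR called 0 of the 24 that passed the filter, with 11 higher and 2 lower (Acly and Fasn) at an unadjusted p under 0.05, while DESeq2 called 1 higher and 1 lower (Slc2a4 and Acly, named after their values were seen). Over all genes 1.00% were called higher by edgeR, 10.3% were higher at the unadjusted level and 3.09% were called higher by DESeq2. Their median log2 fold change was 0.50, against 2.02 for the 6 members and -0.02 for all genes. The 8 with the highest levels were Fasn, Acly, Scd1, Acaca, Pnpla2, Elovl6, Dgat1 and Cd36, which make, desaturate, store, release or take up fatty acids. Fasn (fatty acid synthase) was on 96.3% to 99.5% of spots per section, at 270, 180, 302 and 260 CPM, and its edge log2 fold change was -0.20 (adjusted p = 0.209 by edgeR). The 8 genes were on 33.8% to 99.5% of spots per section, against at most 6.35% for the members other than Fabp4. In vessel-rich spots edgeR called 6 of 22 higher and 2 lower, against 11.5% and 10.2% of all genes. The lower ones were Acly (-0.16, adjusted p = 0.0126) and Scd1 (-0.27, adjusted p = 0.00197). Those called higher were Cd36 (0.59, adjusted p = 4.43e-05), Lpl, Car3, Trarg1, Sncg and Slc2a4, named after their values were seen.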

How the data were processed

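Spatial transcriptomes of 4 fresh frozen MC38 sections, 2 per strain, were analysed from the deposited tables, which hold raw UMI counts per gene and tissue spot. The authors made these counts with Space Ranger 1.3.1 on GRCm38 (mm10) with GENCODE vM23 annotation. That build is a C57BL/6J genome, whereas hosts carry a second haplotype, so counts of divergent genes could be lowered. The authors' SCTransform values and their shuffling of spots were not used here. Chromosomes of genes were taken from GENCODE vM21 (GRCm38), and promoters from RefSeq. Section totals were 82594649 to 146460975 UMIs. Intervals and the limit of 3 counts for a 0 cover counting error only.

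UMIs were summed per section, or per section and spot class, filtered with filterByExpr, scaled by TMM and fitted by edgeR 4.0.16 quasi-likelihood (R 4.3.3) with section as a block (strain alone in the strain fit). P-values were adjusted by Benjamini-Hochberg over all genes tested. DESeq2 1.42.0 was an alternative. The scripts were tested on simulated data, where the share of false calls was above the nominal rate, so calls near the threshold are less certain. The authors placed sections from 4 tissue blocks on a Visium slide, and the labels do not say which sections shared a slide or a batch. A batch and the strain therefore cannot be told apart. Replicates are separate tumors per the labels. The members and lists were chosen with earlier results of these data known. Named genes were all members, the other fat genes with the largest edge change among those called (or the 8 with the highest level, as none was called) and the 10 most alike.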

Additional observations from a re-analysis of the deposited data

How the results depend on the processing

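Of 279 values of single members under alternatives, 229 kept direction and side of the threshold, 31 moved past it, 8 fell short of it and 11 reversed. The reversed ones were differences between strains of the edge contrast, for Adipoq (-0.18), Cidec (-0.34), Fabp4 (-0.34) and Retn (-2.0) without CC080F1 replicate 1 (3.55, 3.56, 1.10 and 2.05 without CC080F1 replicate 2), for Cidec (-0.77) without CC075F1 replicate 2, for Retn with no filter (-0.010), without CC075F1 replicate 1 (-0.05), at 5 steps (-0.037) and from the outer boundary alone (-0.066), and the macrophage value of Retn in the interior (-0.21) and without vessel-rich spots (-0.20). None of these was past the threshold in the reported fit, and the cause was not tested. The number of genes called moved more than any member. The strain contrast called 14 genes, 40 by library size alone, 480 with no filter, 194 by DESeq2 and 11 to 207 leaving out a section. The edge contrast called 166 genes, 683 with no filter, 630 by DESeq2, 534 at 1 step, 71 at 5 steps, 313 from the outer boundary alone, 508 without spots holding skin or muscle, 368 with the border of the capture area as edge and 4 to 946 leaving out a section. Its difference between strains called 16 genes, 532 with no filter, 71 by DESeq2, 47 at 1 step, 56 without spots holding skin or muscle and 1 to 501 leaving out a section. The vessel contrast called 3258 genes, 2122 by DESeq2 and 1758 to 3169 leaving out a section, and the macrophage contrast 841, 1777 with no filter and 42 to 1494. The share of fat spots was 0.0458% in CC075F1 and 0.708% in CC080F1 as reported, 0.398% and 2.72% at 1 UMI, 0.180% in CC080F1 at 5 UMIs, 0.223% in CC080F1 with thinned spots, and 0% to 0.0916% and 0.502% to 0.914% leaving out a section. In CC075F1 replicates 1 and 2 that share was 0% and 0.0305% at 5 UMIs, and 0% and 0.0315% with thinned spots. Moran's I of Fabp4 averaged 0.197 and was 0.142 on presence of a UMI. Fits with 1 section in a strain assume that it varies like the others. Apart from the replicate block given below, the other alternatives changed none of these counts of genes called by over 1.5 times.

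Replicate numbers were shared between the strains, but the labels give them no common batch. Over 12207 genes the difference of replicate 1 and 2 in CC075F1 correlated with that in CC080F1 (r = 0.38). With the replicate block the strain contrast called 287 genes. Low counts limit Plin1 and Lep, which the filters removed from several fits.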

Other observations

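Genes of brown and beige fat, and white fat genes other than the 7, were read as values only. Ucp1, the uncoupling protein of brown and beige adipocytes, had 2 and 5 UMIs in CC075F1 replicates 1 and 2 and 4 and 2 UMIs in CC080F1 replicates 1 and 2. Cidea, a droplet protein of brown and beige adipocytes, had 10 and 9 UMIs in CC075F1 and 5 and 5 in CC080F1, the only one of the 31 other fat genes lower in both CC080F1 sections. Adrb3, the fat adrenergic receptor, had 1 and 0 UMIs in CC075F1 and 1 and 4 in CC080F1. Pck1, which supplies glycerol for triglyceride in fat, had 1 and 4 UMIs in CC075F1 and 19 and 26 in CC080F1. Plin4 had 2 and 15 UMIs in CC075F1 and 33 and 79 in CC080F1. Car3 did not share that order, with 19 and 839 UMIs in CC075F1 and 193 and 241 in CC080F1. Its highest value was in CC075F1 replicate 2, the section in which the skeletal muscle list stood at 179 CPM, against 4.38 to 19.3 CPM in the others.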
